A study of Mus musculus with 10 samples.

Results

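The mouse Serpina1 and Serpina3 genes encode protease inhibitors that hepatocytes secrete into plasma. The set described here holds the 5 alpha-1 antitrypsin copies Serpina1a, Serpina1b, Serpina1c, Serpina1d and Serpina1e and the 3 antichymotrypsin-like genes Serpina3k, Serpina3m and Serpina3n. They were picked by symbol, 8 of the 24537 symbols in the count table, and all 8 were among the 13909 genes that passed the filter on low counts. Each gene was followed in every liver as CPM (counts scaled to a common library size with TMM factors), and the copies of each subfamily were also summed, because reads from near-identical copies can be exchanged between them.

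Serpins work as decoys. A protease cuts an exposed loop of the inhibitor, the reactive centre loop, and is trapped in a complex that cannot be undone, and the sequence of that loop largely sets which proteases are caught. Alpha-1 antitrypsin, the product of 1 gene in humans and of several neighbouring copies in mice, is best known as the plasma inhibitor of neutrophil elastase. Serpina3 proteins are the mouse relatives of human antichymotrypsin, and Serpina3n is a classical acute phase gene of the liver whose product can inhibit granzyme B.

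RNA came from whole livers of male mice, and the series concerns hepatocyte CD44 and interleukin 6 and STAT3 signalling in the aged liver. Every mouse, controls included, had received adeno-associated virus 8 in which the TBG promoter drives the small Cas9 (saCas9) in hepatocytes and a U6 promoter drives a guide RNA. Young Rosa26 controls (3 livers) got the virus at 7 months and were 9 months old, and old Rosa26 controls (3 livers) got it at 23 months and were 25 months old. The old Cd44KO group (4 livers) also got virus at 23 months and was 25 months old, with guide 4 in replicates 1 and 2 and guide 2 in replicates 3 and 4. Cells other than hepatocytes are outside the reach of the TBG promoter and remain in whole-liver RNA, and mice without virus were not analysed here.

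Total counts lay between 15821198 and 21710228 per liver, and the lowest count of any of the 8 genes in any liver was 3053. TMM factors were 0.824 to 0.897 in the young livers and 0.966 to 1.12 in the old ones. With total counts in place of TMM factors, the median log2 difference of all genes between old and young controls was 0.34, against 0.04 with TMM factors. Cd44 itself was at 14.2 to 29.98 CPM in old controls and 13.1 to 29.0 CPM in the livers labelled Cd44KO, so its whole-liver level did not separate these groups. Old control replicate 3 has a library number in the labels outside the run of the others. It had the highest level of the old controls for 7 of the 8 genes (all but Serpina1c). Differences between groups that rest on it are given with and without it.

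The members are first shown by sequence, because their likeness limits how well short reads can be assigned. The 5 Serpina1 coding sequences were each 1242 bases long and 96.3% to 98.5% identical in pairs, with Serpina1a and Serpina1c the closest pair. The 3 Serpina3 coding sequences were 1257 bases long and 82.1% to 90.7% identical, and identity between the subfamilies was 54.5% to 56.8%. Differences were not spread evenly. In the most variable 60-base stretch, 18 of 60 columns differed among the Serpina1 copies, against 86 of 1242 over the whole coding sequence. For Serpina3 these counts were 26 of 60 and 257 of 1263 aligned columns. Both stretches lie near the 3′ end of the coding sequence, in the part that encodes the reactive centre loop. They are shown because this is where the copies can be told apart by letter, and capitals mark the columns that differ within a subfamily (5′ to 3′ on the gene's strand, GRCm38).
Serpina1a, chr12:103853757-103853816, minus strand: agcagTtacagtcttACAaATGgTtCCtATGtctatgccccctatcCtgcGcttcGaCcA
Serpina1b, chr12:103728324-103728383, minus strand: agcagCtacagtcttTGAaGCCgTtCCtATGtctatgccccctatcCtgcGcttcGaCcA
Serpina1c, chr12:103895094-103895153, minus strand: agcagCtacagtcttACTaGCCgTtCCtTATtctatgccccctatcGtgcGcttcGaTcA
Serpina1d, chr12:103763762-103763821, minus strand: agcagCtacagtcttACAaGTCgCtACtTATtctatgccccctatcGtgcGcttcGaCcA
Serpina1e, chr12:103947100-103947159, minus strand: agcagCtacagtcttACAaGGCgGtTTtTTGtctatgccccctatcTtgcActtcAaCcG
Serpina3k, chr12:104345267-104345326, plus strand: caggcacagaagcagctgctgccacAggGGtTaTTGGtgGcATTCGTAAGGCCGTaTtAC
Serpina3m, chr12:104393767-104393826, plus strand: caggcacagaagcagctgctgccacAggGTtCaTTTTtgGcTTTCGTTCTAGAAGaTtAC
Serpina3n, chr12:104413446-104413505, plus strand: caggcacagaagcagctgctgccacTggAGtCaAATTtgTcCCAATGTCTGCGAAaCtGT
Pairs of Serpina1 copies differed at 5 to 12 of the 60 bases shown, and pairs of Serpina3 genes at 13 to 23.

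Read assignment was examined by sliding a window of 75 bases, the read length, along each coding sequence and asking whether it also occurs in the transcripts of another GENCODE M21 gene. Serpina1c and Serpina1a were the least separable, with 78% and 73.7% of windows found elsewhere. Serpina1d and Serpina1b followed with 41.4% and 35.7%, and Serpina1e had 25.3%. Serpina3k and Serpina3m shared 12.3% and 12.9% of their windows, and Serpina3n 2.45%. Levels of single Serpina1 copies are therefore uncertain, since the sources used here do not give how reads with several matches were counted. Serpina1e, with the fewest shared windows of these copies, is less exposed to this but not free of it. The annotated model of Serpina1b (chr12:103728156-103830373, minus strand) also spans Serpina1d, and that of Serpina3m (chr12:104338486-104394257, plus strand) begins at the start of Serpina3k.

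**Figure D1:**
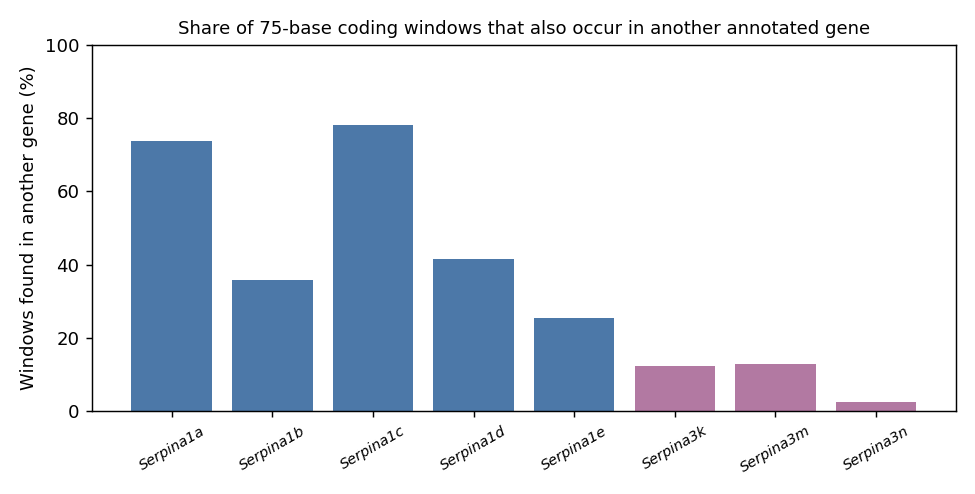
Share of 75-base coding windows (%, vertical axis) of each of the 8 genes that also occur in another annotated gene, with Serpina1 copies in blue and Serpina3 genes in purple. Serpina1a and Serpina1c stand at 73.7% and 78%, Serpina1e at 25.3% and Serpina3n at 2.45%.

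Levels per kilobase of transcript allow for the length of a gene but not for reads shared between copies. The order among the Serpina1 copies is therefore uncertain, since the handling of reads with several matches is not given. On this scale Serpina1e had the highest mean of the 8 in young livers at 7889 CPM per kb. In young replicate 3, however, Serpina3k (6403) was just above it (6373). Serpina3k (6548), Serpina1a (6144), Serpina1b (5574) and Serpina1c (5323) came next in CPM per kb, followed by Serpina1d (2296), Serpina3n (851) and Serpina3m (364). In old controls Serpina1e had the highest mean at 4295 CPM per kb, with Serpina1a at 3871, and this order rested on old control replicate 3. Without that liver Serpina1e was at 3373 CPM per kb, beside Serpina1b at 3474 and Serpina1a at 3405. In livers labelled Cd44KO it was at 1839 CPM per kb, below Serpina1b (3604), Serpina1c (3309.7), Serpina1a (3297) and Serpina3k (2997). Together the 8 genes took 4.22% to 4.88% of all counts in young livers, 2.77% to 3.44% in old controls and 2.43% to 2.91% in livers labelled Cd44KO.

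Both subfamilies were lower in old than in young control livers. Summed over its 5 copies, Serpina1 stood at 35752, 40545 and 34062 CPM in the young livers and at 20717, 20003 and 26699 CPM in the old controls. The groups did not overlap, and the old mean was 1.64-fold lower (log2 difference -0.71, SE 0.18). Summed Serpina3 was at 13442, 18662 and 15387 CPM in young livers and 4290.2, 5428 and 8918 CPM in old controls. These groups did not overlap either, and the old mean was 2.55-fold lower (log2 difference -1.35, SE 0.27). Serpina3k held 83.8% to 85.6% of the Serpina3 counts in young livers and 83.8% to 91.3% in old controls. Its share was 88.3% to 94.2% in livers labelled Cd44KO, so the Serpina3 sum mostly follows this gene. Without old control replicate 3, the differences were -0.86 for Serpina1 and -1.71 for Serpina3 on the log2 scale. In bulk liver RNA, fewer hepatocytes and less RNA per hepatocyte cannot be told apart.

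Gene by gene, 6 of the 8 members were called lower in old controls at an adjusted p under 0.05 by edgeR's quasi-likelihood test, where 8.66% of all genes tested were called lower. The old and young livers did not overlap for 7 of the 8 (18.0% of all genes were lower without overlap), and the median log2 difference was -0.82 for the members and 0.04 for all genes. The count rests on the scaling and on single livers. With total counts only 2 members were called (Serpina3k and Serpina3n, adjusted p = 0.00827 and 0.0104) where 2.55% of all genes were called lower, with the median member 0.87 below the median of all genes as against 0.86 with TMM factors. Only 2 were called when the fit held no knockout livers (431 of 13386 genes were then called lower), and leaving out 1 liver gave between 0 calls (without young replicate 2, with 1.08% of all genes called lower) and 8 calls (without old control replicate 3, with 17% of all genes). All 8 differences were negative under each of the 12 alternatives run.

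**Figure D2:**
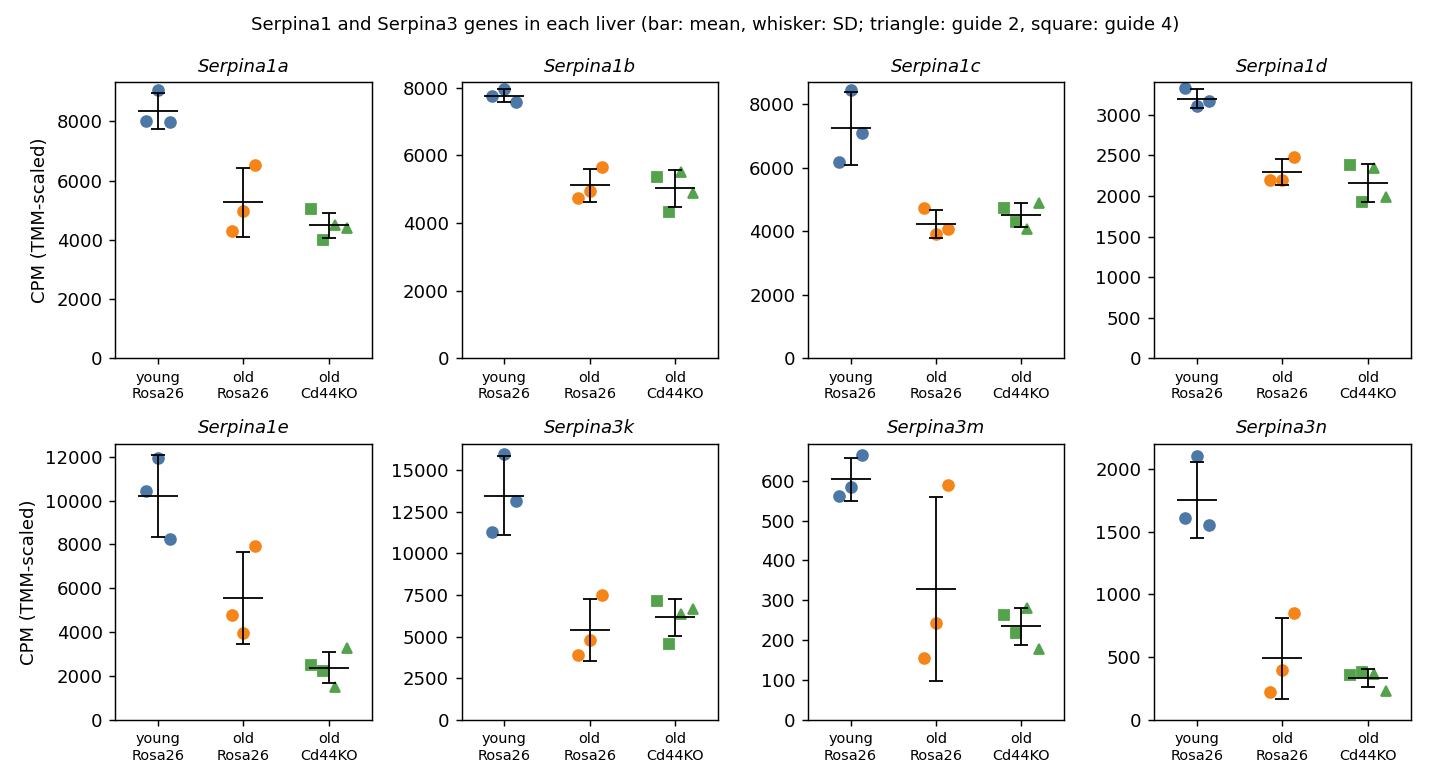
Level of each of the 8 genes (CPM with TMM factors, vertical axes starting at 0) in every liver of the 3 groups; points are livers, with squares for guide 4 and triangles for guide 2, and horizontal bars and whiskers give the mean and SD. The young livers lie above both old groups for every gene except Serpina3m, and Serpina1e is the gene whose knockout livers, between 1519 and 3260.1 CPM, lie below all old controls.

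Among the alpha-1 antitrypsin copies, Serpina1a had 8023, 9062 and 7981 CPM in young livers and 4282, 4978 and 6531 CPM in old controls. Its log2 difference was -0.67 (SE 0.18, adjusted p = 0.0267). Serpina1b, at 7758, 7978 and 7573 CPM in young livers, varied little there (SD 203 CPM, n = 3), and it was at 4736, 4949.8 and 5662 CPM in old controls. It fell by 0.60 on the log2 scale (SE 0.15, adjusted p = 0.0216). For both genes every old control was below every young liver. Serpina1c went from 6182, 8461 and 7088 CPM to 4735, 3902 and 4081 CPM, a log2 difference of -0.77 (SE 0.17, adjusted p = 0.0129). It was the only member for which old control replicate 3 was not the highest of the old controls. Serpina1d, the least abundant copy, went from 3330.1, 3106 and 3166 CPM to 2199.9, 2202 and 2475 CPM (log2 difference -0.48, SE 0.15, adjusted p = 0.0368). The calls of these 4 copies were lost with total counts, at adjusted p = 0.0699, 0.0911, 0.0512 and 0.29 in the order a to d. They were also lost in a fit of only the young and old controls, at adjusted p = 0.0910, 0.0780, 0.0582 and 0.106, and that of Serpina1d was lost with no filter (adjusted p = 0.0653).

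Serpina1e varied more than the other copies. It was at 10459, 11938 and 8253 CPM in young livers and at 4764, 3971 and 7950.1 CPM in old controls, where replicate 3 lay just under the lowest young liver. The groups did not overlap, but the log2 difference of -0.88 (SE 0.31) missed the threshold (edgeR adjusted p = 0.0621). It was past the threshold without old control replicate 3 (log2 difference -1.23, adjusted p = 0.00932) and in DESeq2's Wald test (-0.88, adjusted p = 0.0190).

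Serpina3n and Serpina3k had the largest differences between the ages, and Serpina3m did not share this. Serpina3k, a liver serpin related to the kallikrein-binding inhibitors, was at 11267, 15972 and 13170.0 CPM in young livers and at 3915, 4789 and 7476 CPM in old controls. This was 2.497-fold lower with age (log2 difference -1.32, SE 0.26, adjusted p = 0.0101). Serpina3n was at 1612, 2106 and 1553 CPM in young livers and at 221, 396 and 851 CPM in old controls. Its drop of 3.59-fold was the largest of the 8 (log2 difference -1.84, SE 0.40, adjusted p = 0.0129). The old controls differed among themselves by a factor of 3.85, and without replicate 3 the log2 difference was -2.51 (SE 0.30, adjusted p = 0.00155). Serpina3m, the third gene of the cluster, was at 562, 585 and 665 CPM in young livers and at 154, 243 and 591 CPM in old controls. Here old control replicate 3 lay within the young range and the difference was not called (log2 -0.88, SE 0.39, adjusted p = 0.12). Without that liver it was -1.61 (adjusted p = 0.00224).

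**Figure D3:**
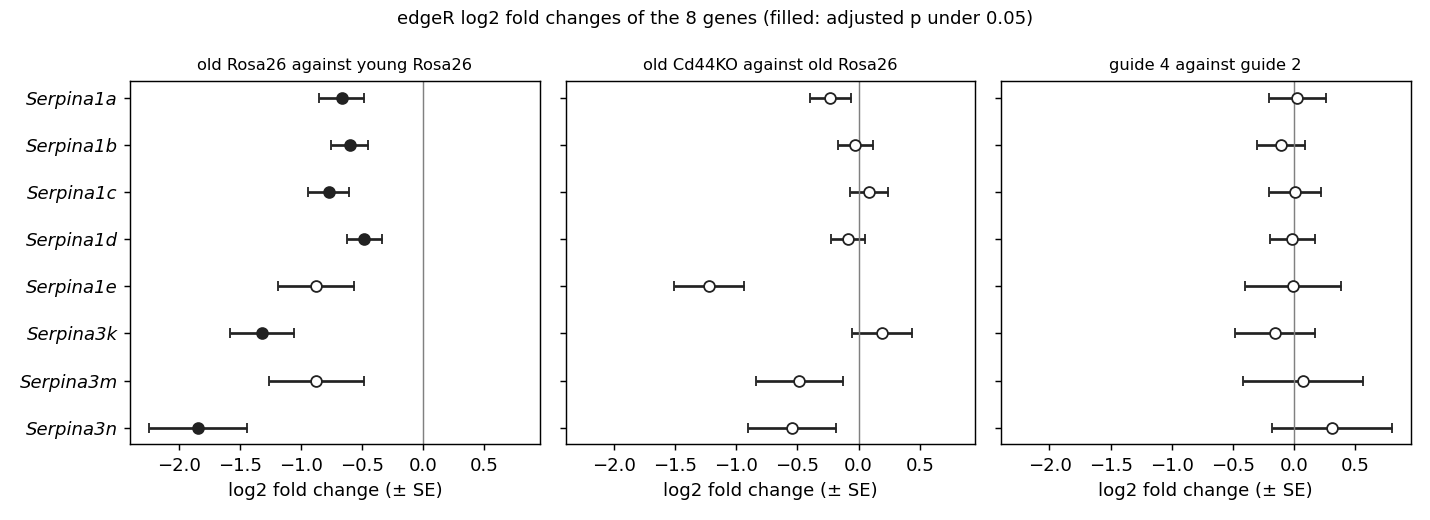
Log2 fold changes with their SE (horizontal axis) of the 8 genes for age, Cd44 knockout at old age, and guide 4 against guide 2; filled points have an adjusted p under 0.05. Serpina3n reaches -1.84 and Serpina3k -1.32 with age, Serpina1e stands alone at -1.22 in the knockout comparison, and the guide differences lie between -0.15 and 0.31.

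Between old Cd44KO and old Rosa26 livers no member was called, and neither was any other gene by edgeR (0% of 13909, with 6.59% at an unadjusted p under 0.05). DESeq2's Wald test called 8 genes, Serpina1e among them (adjusted p = 0.0319). Summed Serpina1 was at 20037, 16776, 17972 and 19427 CPM in knockout replicates 1 to 4, overlapping the old controls by 1 liver, with a log2 difference of -0.28 (SE 0.17), or -0.13 (SE 0.13) without old control replicate 3. Summed Serpina3 was at 7753, 5146, 6997 and 7039.7 CPM, with a log2 difference of 0.12 (SE 0.25). Knockout replicate 2 lay between old control replicates 1 and 2. Knockout replicates 1, 3 and 4 lay within the range of the old controls only through old control replicate 3. Without that control the log2 difference was 0.47 (SE 0.20).

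Serpina1e was the exception among the copies. It was at 2503 and 2246 CPM with guide 4 and at 1519 and 3260.1 CPM with guide 2, all below the lowest old control (3971 CPM). Groups with no overlap were found for 1 of the 8 members and for 6.10% of all genes (3.26% of all genes were lower without overlap). The mean was 2.33-fold lower than in old controls (log2 difference -1.22, SE 0.29). By edgeR's quasi-likelihood test the adjusted p was 0.744 (0.00125 before adjustment), so it was not called. Leaving out 1 liver at a time moved the log2 difference between -1.42 and -0.87, the latter without old control replicate 3. Against the same 3 old controls, which the comparisons share, the log2 difference was -1.23 for guide 4 (SE 0.38, adjusted p = 0.980) and -1.22 for guide 2 (SE 0.38, adjusted p = 0.530). The guide 2 value was -1.87 without knockout replicate 4 and -0.77 without knockout replicate 3.

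The make-up of the Serpina1 counts shows the same gap without any scaling between libraries. Serpina1e held 29.3%, 29.4% and 24.2% of the Serpina1 counts in young livers and 23.0%, 19.9% and 29.8% in old controls. In knockout replicates 1 to 4 it held 12.5%, 13.4%, 8.45% and 16.8%, below every control liver of either age. The other 4 copies summed to 15953 to 18749 CPM in old controls and 14531 to 17534 CPM in knockout livers, which overlap; this sum was chosen after the values were seen and was not tested. Serpina1b held 25.1% to 30.7% of the counts in knockout livers against 21.2% to 24.7% in old controls, and Serpina1c 22.7% to 25.6% against 15.3% to 22.9%. Shares add to 100%, so these values are not independent of the Serpina1e share.

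**Figure D4:**
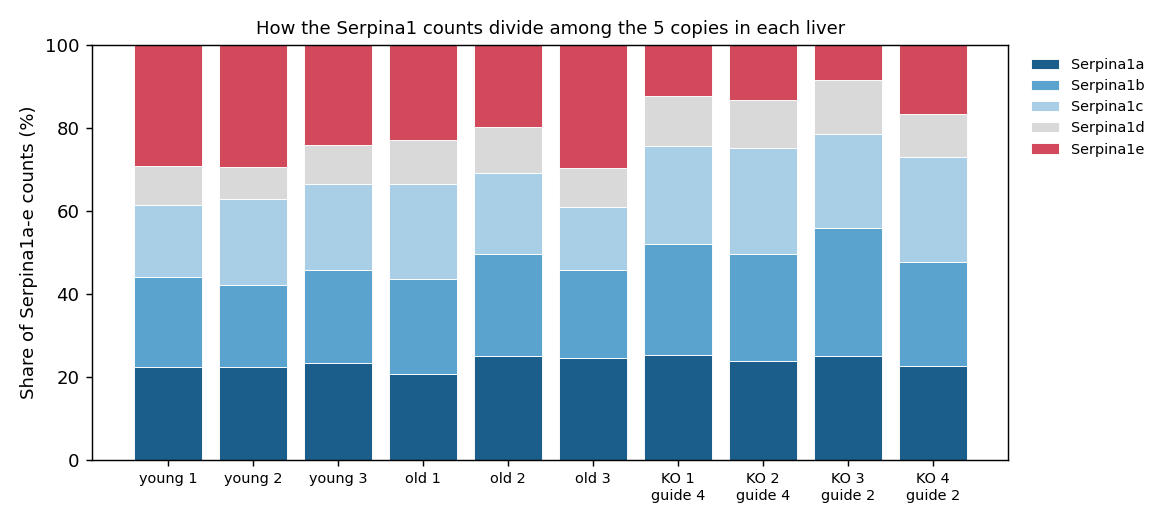
Division of the Serpina1 counts among the 5 copies (% of their summed counts, vertical axis) in each of the 10 livers, named by group and replicate. The Serpina1e share (red, top) is 19.9% to 29.8% in the 6 control livers and 8.45% to 16.8% in the 4 knockout livers.

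The remaining members overlapped between old controls and knockout livers. Serpina1a was at 5047, 4003, 4494 and 4393 CPM in knockout replicates 1 to 4 (log2 difference -0.23, SE 0.17). Serpina1b had 5373, 4314, 5524 and 4885 CPM (-0.03, SE 0.14), Serpina1c 4738, 4292, 4088 and 4899 CPM (0.09, SE 0.16) and Serpina1d 2377, 1921, 2347 and 1989 CPM (-0.09, SE 0.14). Adjusted p-values of these 4 copies were between 0.812 and 0.987. Serpina3k stood at 7128, 4546, 6351 and 6630.0 CPM (0.19, SE 0.24), Serpina3m at 264, 218, 280.1 and 178 CPM (-0.49, SE 0.36) and Serpina3n at 361, 382, 366 and 232 CPM (-0.55, SE 0.36). The last pair turned positive without old control replicate 3, at 0.25 for Serpina3m and 0.12 for Serpina3n, and Serpina3k was then at 0.50.

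Against the young controls, which also serve the age comparison, all 8 members were called lower in livers labelled Cd44KO, where 4.97% of all genes were called lower. Serpina3n was 5.24-fold lower (log2 difference -2.39, SE 0.37, adjusted p = 0.00938) and Serpina1e 4.29-fold lower (-2.10, SE 0.29, adjusted p = 0.00714). Serpina3m (-1.36, adjusted p = 0.0359) and Serpina3k (-1.13, adjusted p = 0.0224) followed, and Serpina1a (-0.90), Serpina1c (-0.69), Serpina1b (-0.63) and Serpina1d (-0.57) had adjusted p-values of 0.0160 to 0.0288. The number called was 5 with total counts, where 1.82% of all genes were called lower, and 1, Serpina1e, without young replicate 2, where 0.226% were. It was 5 without young replicate 1 (1.61% of all genes), 2 without young replicate 3 (0.749%) and 3 without knockout replicate 2, 3 or 4 (0.989% to 1.34%).

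No member separated the guides. None of the 8 was called between guide 4 and guide 2 (0.0216% of all genes were), with 2 livers per guide. Log2 differences ran from -0.15 for Serpina3k (SE 0.33) to 0.31 for Serpina3n (SE 0.49), all at an edgeR adjusted p of 0.99955. The SEs were 0.19 to 0.49, so a modest difference between guides was not detectable with these livers. Serpina1e was at a mean of 2374 CPM with guide 4 and 2389 CPM with guide 2, but the guide 2 pair was far apart.

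Across the 10 livers all 28 pairs of members correlated positively on the log2 CPM scale (Pearson's r 0.60 to 0.98), as a description of livers that fall into age groups and share their library scaling. Within the 7 old livers the pairs parted. Serpina3m and Serpina3n stayed together (r = 0.97), as did Serpina1b and Serpina1d (0.90), whereas Serpina1c had r between -0.68 and 0.02 with every other member. Serpina1e had r = 0.65 with Serpina1a and 0.01 with Serpina3k. Old control replicate 3 was the highest of the 7 old livers for every member but Serpina1c, and r without it was not computed. Among 8216 genes of at least 10 CPM on average, the 3 with the most similar pattern to summed Serpina1 over the 10 livers were C6 (r = 0.97, 0.94 within old livers), Agt (0.97 and 0.89) and Raph1 (0.97 and 0.82). For summed Serpina3 they were Nifk (0.99 and 0.98), Nop58 (0.99 and 0.97) and AW209491 (0.99 and 0.98). For Serpina3n they were H6pd (0.99 and 0.95), Mt2 (0.98 and 0.88) and Hspa8 (0.98 and 0.96). All these genes were picked for a high r over livers that include the old ones. Their r within old livers is therefore not independent of that choice.

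The sequence before the gene start was read from RefSeq (GRCm38.p6) for the 6 members matched there, all but Serpina3k and Serpina3m. The windows of 250 bases end at each gene's RefSeq start and so do not cover the same stretch of every copy. The STAT motif TTCNNNGAA, searched on both strands, was in no member window and in 7.02% of 32851 promoters, and the C/EBP motif TTGCNNAA was in those of Serpina1b, Serpina1d and Serpina1e and in 9.56%. A match of letters is a description of the window and not a bound site.

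Genes around these inhibitors were followed through 7 lists, to be read against the 8.66% of all genes called lower and 14.1% called higher with age. Of the other clade A serpins, 13 were tested in the age comparison: Serpina10, the protein Z-dependent inhibitor, fell by 0.96 on the log2 scale (adjusted p = 0.0338) and Serpina6, corticosteroid-binding globulin, rose by 0.46 (adjusted p = 0.0366). Of 13 serpins of other clades, Serpinb6a (1.46) and Serpinb8 (0.65) rose and Serpinf1 (-0.41) fell. None of 14 other plasma protease inhibitors, alpha-2-macroglobulin relatives and inter-alpha-trypsin inhibitor chains among them, was called. The median log2 difference was -0.29, 0.05 and 0.15 in these lists, against -0.82 for the 8 members and 0.04 for all genes.

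Among 9 proteases that serpins can target, Gzmb, granzyme B of cytotoxic lymphocytes, rose from 0.19 to 1.10 CPM in young livers to 1.77 to 4.05 CPM in old controls (log2 difference 2.03, adjusted p = 0.0164). Elane, neutrophil elastase, was under the filter. It was at 0.24, 0.07 and 0.06 CPM in young livers and at 0.15, 13.3 and 0.10 CPM in old controls, so only replicate 2 was high. Of 20 transcription factors and receptors that act on the inhibitor genes, 4 fell and none rose with age. Among the 4 were Hnf4a (-0.96, adjusted p = 0.0147), Cebpb (-0.77, adjusted p = 0.0235) and the interleukin 1 receptor Il1r1 (-1.78, adjusted p = 0.0280), whereas Stat3 (-0.62, adjusted p = 0.172) and Il6ra (-0.70, adjusted p = 0.0896) were not called. In the comparison of knockout with young livers 7 of the 20 were called lower, where 4.97% of all genes were. Il6ra (-1.47) and Il1r1 (-2.51) had the smallest adjusted p-values of the 7.

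Of 26 genes for folding, export and disposal of secreted proteins, 4 fell with age, including Syvn1, a ubiquitin ligase of the endoplasmic reticulum (-2.22, adjusted p = 0.0154), Edem3 (-0.93, adjusted p = 0.0147) and Mcfd2, a subunit of the cargo receptor that carries alpha-1 antitrypsin (-0.59, adjusted p = 0.0232). Of 20 other acute phase proteins, Saa2 (-2.82, adjusted p = 0.0332), Saa1 (-2.47, adjusted p = 0.0492) and Crp (-0.69, adjusted p = 0.0450) fell with age and none rose. Saa1 was at 1060.1, 1479 and 1083 CPM in young livers and 50.7, 165 and 438 CPM in old controls, the same order of old controls as for Serpina3n. In knockout against young livers 8 of these 20 were called lower, where 4.97% of all genes were. Among the 8 was the fibrinogen chain Fgg (-1.34, edgeR adjusted p = 0.0342). The medians with age were -0.36, -0.49 and -0.44 for the lists of factors, folding genes and acute phase proteins. Without old control replicate 3 they were -0.55, -0.68 and -1.21, against -1.04 for the Serpina members. No gene of the 7 lists was called between old knockout and old control livers or between guides.

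The list counts, like those of all genes, moved with single livers and with the scaling, in fits added after the values were seen. Without old control replicate 3, 12 of the 20 acute phase proteins, 17 of the 26 folding genes and 10 of the 20 factors were called lower with age, where 17% of all genes were. Without young replicate 2 these counts were 0, 0 and 1 (1.08% of all genes), and no acute phase protein was called without young replicate 1 or 3 or without old control replicate 1 or 2. With total counts the median log2 differences of the 3 lists were -0.17, -0.21 and -0.07, and that of the other clade A serpins was 0.01, each below the 0.34 of all genes. Under that scaling Serpina10 (adjusted p = 0.0637), Serpinf1 (adjusted p = 0.537), Cebpb (adjusted p = 0.0751), Mcfd2 (adjusted p = 0.14), Saa1 (adjusted p = 0.0543) and Crp (adjusted p = 0.139) were no longer called lower, while 27.8% of all genes were called higher, among them 2 of the 20 factors, 2 of the 14 plasma inhibitors, 4 of the 13 serpins of other clades and 4 of the 9 proteases. In knockout against young livers, no acute phase protein and no factor was called lower without young replicate 2 (0.226% of all genes), and 6 and 4 were called lower with total counts (1.82% of all genes).

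**Figure D5:**
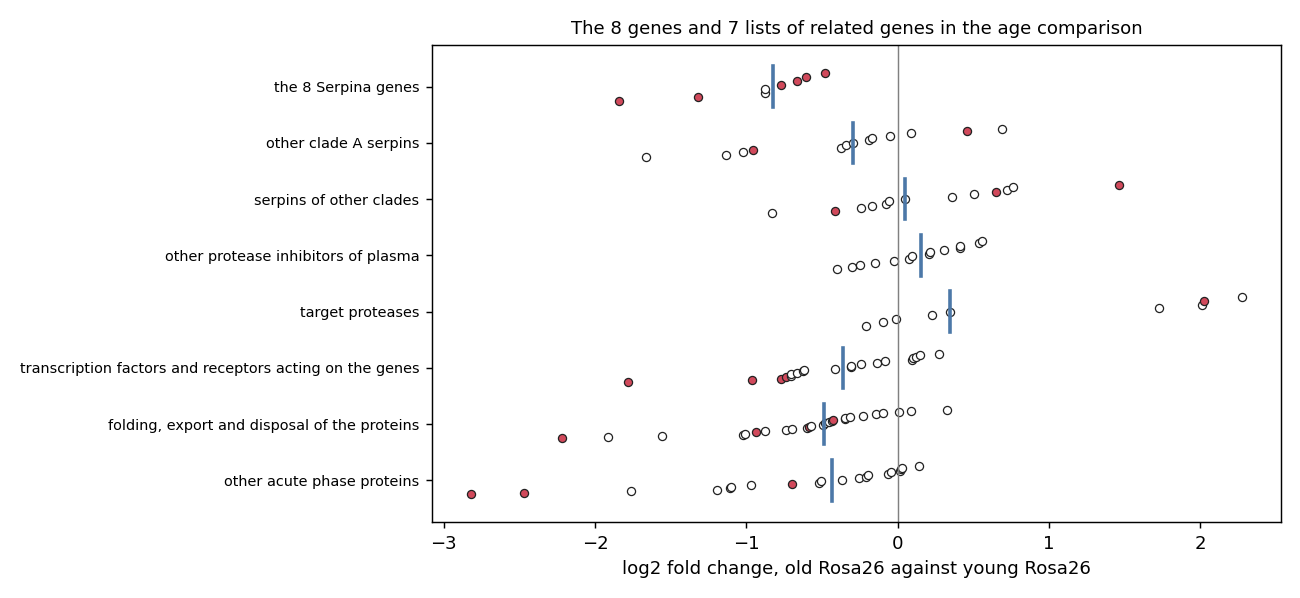
Log2 fold changes of old against young Rosa26 livers (horizontal axis) for the 8 genes and the tested genes of the 7 lists; each point is a gene, filled red at an adjusted p under 0.05, and blue bars mark medians. With all livers the median of the 8 genes, -0.82, lies left of all list medians, which run from -0.49 to 0.35. Without old control replicate 3 (not drawn) the median of the acute phase proteins, -1.21, was below that of the 8 genes, -1.04.

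Cell type markers moved with age as well, where 8.66% of all genes were called lower and 14.1% higher. Of 8 hepatocyte markers 2 were called lower and none higher. Their summed levels were 98841 to 128444 CPM in young livers, 81589 to 112148 CPM in old controls and 87837 to 91090.0 CPM in knockout livers. These sums mostly follow Alb, which was at 69705 to 95018 CPM in young livers and 52993 to 83832 CPM in old controls. Macrophage and Kupffer cell markers (7 of 8 called higher) summed to 201 to 263 CPM in young livers and 404 to 1410 CPM in old controls. Neutrophil markers (4 of 5 tested called higher) summed to 3.74 to 9.97 CPM in young livers, with Ltf and Camp at 0 in all 3, and to 14.6 to 298 CPM in old controls. T cell markers (4 of 6 higher), B cell markers (4 of 5), endothelial markers (4 of 6) and stellate cell markers (4 of 6) rose too, no cholangiocyte marker was called, and 1 of 5 erythroid markers was lower. Without old control replicate 3, 5 hepatocyte markers were called lower and 8 of 8 neutrophil markers then tested higher. In that fit 37.7% of all genes were called in either direction. Without old control replicate 2, 5 macrophage markers and no neutrophil or T cell marker were called, with 7.35% of all genes called. Without young replicate 2 no marker of any list was called, with 2.80% of all genes called. The liver with most macrophage and neutrophil RNA was old control replicate 2, and that with the highest Serpina levels among old controls was replicate 3. The part of these markers in the lower inhibitor levels was not tested.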

How the data were processed

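RNA of 10 whole livers was read as polyadenylated libraries with paired reads of 75 bases, per the labels' protocols. The authors deposited 1 table of raw counts per gene symbol, with no normalization. Per the submitters' processing notes, FastQC 0.11.8, Trim Galore 0.4.4, STAR 2.5.3a, HOMER and the build mm10 were used; settings, annotation, use of strand and the handling of reads with several matches are not given in the sources used here. Groups follow the sample titles. Replicate numbers follow the order of the records and only name a liver, and nothing says how the animals were kept or sampled. The p-values set group differences against the spread between these livers, estimated over all 10 libraries in the reported fits. Within groups, each pair of livers had a chi-square of at least 20.3 per degree of freedom, more than sampling noise gives.

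Counts were tested with edgeR 4.0.16 in R 4.3.3: TMM factors, filterByExpr (minimum count 10, minimum total 15), 1 coefficient per group or guide over all 10 libraries, the quasi-likelihood test and Benjamini-Hochberg adjustment over 13909 genes at a threshold of 0.05. SEs are the absolute log2 fold change over the square root of F. Subfamily sums have an SE and no p. Alternatives were DESeq2 1.42.0, voom of limma 3.58.1, other scalings, no filter, fits of the compared groups alone and leaving out each liver. The steps were tested on simulated counts. Every member had 3053 counts or more in each liver, so counting error is small beside the spread between livers.

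Gene symbols matched 8 of 8 members in GENCODE M21 (GRCm38) and 6 of 8 in the RefSeq promoter table. Coding sequences were aligned with MAFFT 7.526, and lengths for CPM per kb are those of 1 principal transcript per gene. Named genes are all 8 members, up to 3 genes in each direction with the smallest adjusted p per list and comparison, and the 3 genes closest in pattern; 1 gene that the rule names is not reported here. Alb, Stat3, Elane, Cd44, Ltf, Camp and the values of Il6ra, Il1r1 and Fgg were chosen outside that rule or after their values were seen. The members, the 7 lists and the 9 marker lists (192 entries, of which 189 matched a symbol) were chosen with earlier results of these data known.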

Additional observations from a re-analysis of the deposited data

Results flagged for a closer look

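Of 18 results checked in the 4 livers labelled Cd44KO (the level and subfamily share of each gene and both sums), 1 had a liver far from the others. Serpina3n was at 232 CPM in replicate 4, a guide 2 liver, against 361, 382 and 366 CPM in replicates 1 to 3. The gap to the nearest liver was 0.859 of the whole range. Chance alone marks about 1 in 20 groups, so 0.9 such results would be met among 18. Saa1 and Saa2, acute phase genes, were also lowest in this liver among the knockout livers, at 31.8 and 14.3 CPM, whereas its Serpina1e level of 3260.1 CPM was the highest of the 4. No member differed between the guides at an adjusted p under 0.05 in edgeR's test.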

How the results depend on the processing

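No paired analysis was possible because the livers carry no numbers that link one group to another. Over the alternatives that kept all livers, the direction of each gene and its side of the threshold were as reported in 270 of 288 checks of single genes. The others were 12 lost calls, 4 reversed directions and 2 gained calls. Calls could be lost only for age and for knockout against young, since no other comparison had a member called, so the ratio says little of how steady the calls are. With total counts the members called numbered 2 for age and 5 for knockout against young, and the summed Serpina1 age difference was -0.41. Of all 13909 genes, 354 and 253 were then called lower in these comparisons. A fit of only the groups compared called 2 members for age, where 431 of 13386 genes were called lower. DESeq2 called 1 member in the knockout comparison, where 8 of 13893 genes were called. The Serpina1e guide difference, near 0 in the reported fit, was 0.00053 with DESeq2's size factors in edgeR, 0.00052 in DESeq2, 0.0859 in voom and 0.0023 in the fit of the groups compared. The cause of these shifts was not tested.

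Leaving out 1 liver at a time gave 0 to 8 members called for age, 1 to 8 for knockout against young and 0 in the knockout comparison. The share of all genes called in either direction moved too. It ran from 2.80% to 37.7% for age, from 0.395% to 11.9% for knockout against young and from 0% to 0.0213% for knockout. Summed Serpina1 ranged from -0.86 to -0.64 for age, -0.35 to -0.13 for knockout and -0.16 to 0.10 between guides. Summed Serpina3 ranged from -1.71 to -1.15, -0.0902 to 0.47 and -0.45 to 0.14. In the knockout comparison the sign turned for Serpina1b (-0.0775 to 0.0543), Serpina3m (-0.83 to 0.25) and Serpina3n (-0.90 to 0.12). For guide 2 against old controls it turned for Serpina1b (-0.0648 to 0.11), Serpina1c (-0.0522 to 0.21), Serpina1d (-0.20 to 0.0342) and Serpina3m (-0.89 to 0.21). For guide 4 these were Serpina1b (-0.25 to 0.0707), Serpina1d (-0.26 to 0.0519), Serpina3k (-0.25 to 0.43), Serpina3m (-0.79 to 0.28) and Serpina3n (-0.75 to 0.27). Between guides they were Serpina1a (-0.15 to 0.18), Serpina1b (-0.27 to 0.0458), Serpina1c (-0.12 to 0.14), Serpina1d (-0.17 to 0.13), Serpina1e (-0.46 to 0.64), Serpina3k (-0.51 to 0.14) and Serpina3m (-0.22 to 0.44). Where this left 1 liver of a guide, that liver was assumed to vary like the other groups. With 3 or 4 livers per group, spread between livers and not depth limits these genes.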
